A study of Homo sapiens with 6 samples.

Results

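Interferon-stimulated genes (ISGs) are the antiviral and immune-regulatory genes that cells switch on after contact with interferon. The set described here holds 49 of them, matched by gene symbol, out of 27754 genes in the count files. Messenger RNA was sequenced and counted per gene in T47D cells, a luminal, hormone receptor positive human breast cancer cell line, grown as an adherent culture in RPMI medium with fetal bovine serum. The 3 normoxia libraries came from cells in 20% O2, and the 3 hypoxia libraries from cells kept at 0.5% O2 for 48 h. The labels give no time for the normoxia cells, and the results text of the study names a higher O2 level for the hypoxia of this experiment than the labels do. No interferon, virus or drug was added to either group according to the labels, and both groups are the same cell line in culture without immune or stromal cells. The study calls its experiments independent and its hypoxia and normoxia samples paired, whereas the labels do not say whether replicates came from separate cultures, and the p-values measure the spread between these libraries.

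Type I interferons bind the receptor of IFNAR1 and IFNAR2, whose kinases JAK1 and TYK2 phosphorylate STAT proteins. Among them STAT2 joins IRF9 in the complex ISGF3, which binds the interferon-stimulated response element (ISRE) in ISG promoters, while STAT dimers formed after interferon gamma bind the shorter GAS element. The products block viral entry, sense and degrade foreign RNA, modify proteins with ISG15, and load peptides for immune recognition, and many ISGs also keep a basal level in tumor cells that have met no interferon.

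The promoter sequences show how members with the same kind of element moved in different directions. The RefSeq promoter table, which runs from 250 bases before to 50 bases after each start site on GRCh38.p14, had an entry for 39 of the 49 genes. An ISRE-like match, defined as GAAA, any 2 bases and again GAAA on either strand, stood in the promoter of 26 of these 39 genes (66.7%), against 1195 of all 27305 genes in the table (4.38%). The 13 windows printed here, each the match nearest the start site, belong to genes described below. They are read along the strand of the gene, and capitals mark the match, which reads TTTC, any 2 bases and TTTC where it lies on the other strand.
ISG20, chr15:88638937-88638966, plus strand: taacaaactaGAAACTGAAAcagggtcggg
IFI27, chr14:94110631-94110660, plus strand: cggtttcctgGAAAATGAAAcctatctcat
PARP14, chr3:122680800-122680829, plus strand: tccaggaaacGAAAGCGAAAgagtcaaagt
IFITM1, chr11:314024-314053, plus strand: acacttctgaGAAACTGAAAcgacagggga
IFITM3, chr11:320876-320905, minus strand: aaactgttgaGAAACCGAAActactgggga
BST2, chr19:17405735-17405764, minus strand: ctgggaaactGAAACTGAAAacctaattaa
OAS3, chr12:112938452-112938481, plus strand: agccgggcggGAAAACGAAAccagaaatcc
IFIH1, chr2:162318686-162318715, minus strand: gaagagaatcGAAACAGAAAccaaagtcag
SAMD9, chr7:93118096-93118125, minus strand: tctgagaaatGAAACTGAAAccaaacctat
HERC5, chr4:88457035-88457064, plus strand: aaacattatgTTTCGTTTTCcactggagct
TRIM14, chr9:98119229-98119258, minus strand: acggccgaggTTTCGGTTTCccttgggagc
IFI6, chr1:27672266-27672295, minus strand: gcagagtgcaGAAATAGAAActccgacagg
TAP1, chr6:32853813-32853842, minus strand: ccgctttcgaTTTCGCTTTCccctaaatgg
The same 10 letters as in ISG20, GAAACTGAAA, stood on either strand in 12 of the 26 promoters. Of these genes ISG20, IFIT5 and DTX3L were higher in hypoxia, IFITM1, OAS3, BST2 and SAMD9 were lower, IFIT3, PARP9 and TRIM21 did not pass, and IFI44 and RSAD2 were not tested. Of the 23 genes with a match that could be tested, 4 rose in hypoxia, 10 fell and 9 did not pass the test, with a median log2 fold change of -0.23. Over all 15657 genes tested, 30.4% were called higher and 29.1% lower. Of the 12 tested genes with a promoter entry and no match, 6 rose, 2 fell and 4 did not pass, with a median of 0.11. With upper-quartile scaling 6 rose and 6 fell among the genes with a match, and 6 rose and 0 fell among those without. Over all genes that scaling gave 38.1% higher and 21% lower. These counts are a description, and a match of letters is not evidence that a factor binds there.

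**Figure D1:**
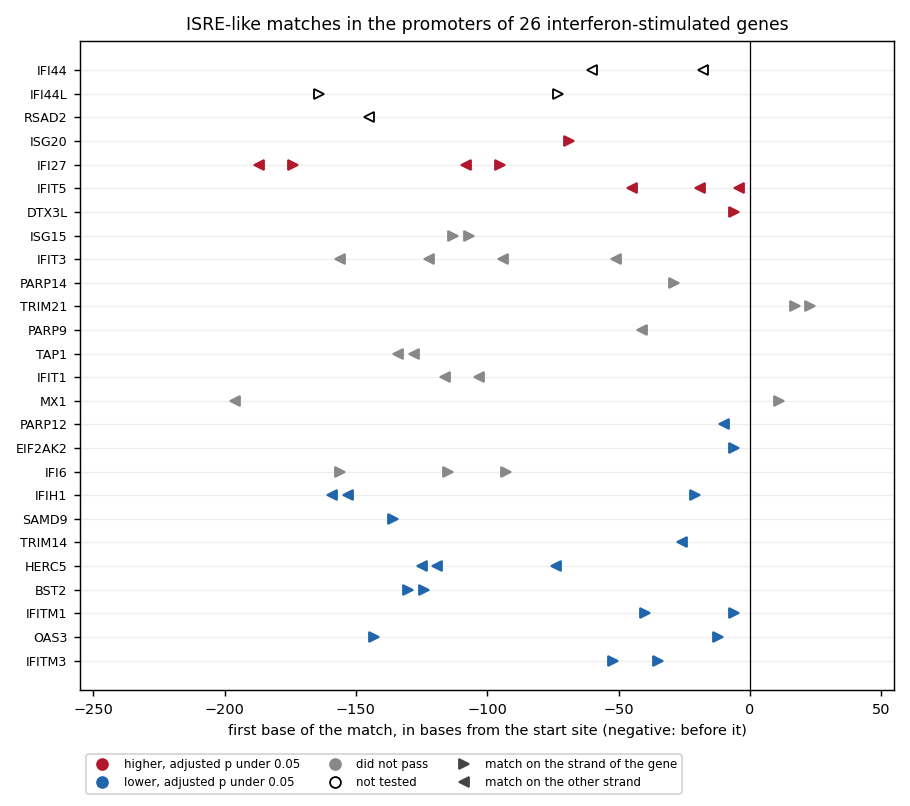
Positions of ISRE-like matches (GAAA, any 2 bases, GAAA, on either strand) in the promoters of 26 interferon-stimulated genes. The x axis gives the first base of each match in bases from the start site, a triangle's direction gives the strand, and its color gives the result of hypoxia against normoxia. Genes higher in hypoxia (4), lower (10), not passing (9) and not tested (3) all had matches, most of them before the start site.

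The ISGs did not move as a block in hypoxia. Of the 49 genes, 45 had enough counts to be tested with edgeR's quasi-likelihood test, and 4 (IFI44, IFI44L, RSAD2 and CMPK2) did not. At an adjusted p below 0.05, 13 were higher in hypoxia (28.9% of those tested, against 30.4% of all 15657 genes tested), 13 were lower (28.9%, against 29.1%) and 19 did not pass. Both shares lie near those of all genes. Counts in the smaller groups below are a description, to be read against the shares of all genes. The median log2 fold change, hypoxia over normoxia, was -0.15 for the 45 genes (quartiles -0.50 and 0.54) and 0.028 for all genes (quartiles -0.40 and 0.58).

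Among the called genes, 7 rose by at least 1 on the log2 scale (15.6% of those tested, against 15.2% of all genes), and 1, IFITM3, fell by at least as much (2.22%, against 4.91% of all genes). Both are close to or below the shares of all genes, in which large increases also outnumbered large decreases. Of these 7, XAF1, TRIM22, IFI27 and OAS1 had few normoxia counts and passed the filter on low counts only through the hypoxia libraries. The filter thus chose them by the group in which they are high, so their rises are a description. All 3 hypoxia libraries lay above all 3 normoxia libraries for 15 of the 45 genes (33.3%, against 34.9% of all genes) and below them for 17 (37.8%, against 32.4%). With the replicate number as a block, 14 genes were higher (36.6% of all genes were) and 17 were lower (35.2% of all genes). Of the 26 calls, 10 held in each of the 9 fits that left out 1 library or 1 replicate number, namely ISG20, GBP2, IRF1, XAF1 and SP100 upward and IFITM2, IFITM3, BST2, OAS3 and TRIM14 downward. The share of all called genes that held in all 9 was not computed, so this count is no trait of the ISGs. Calls over all genes also fell, from 9316 to 4839 without replicate 1, where 11 ISGs were called. Upper-quartile scaling shifted the median of all genes by 0.16 and gave 16 genes higher and 7 lower, so that 69.6% of the called ISGs were higher in place of 50%, while over all genes the share of calls that were higher went from 51.1% to 64.5%.

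**Figure D2:**
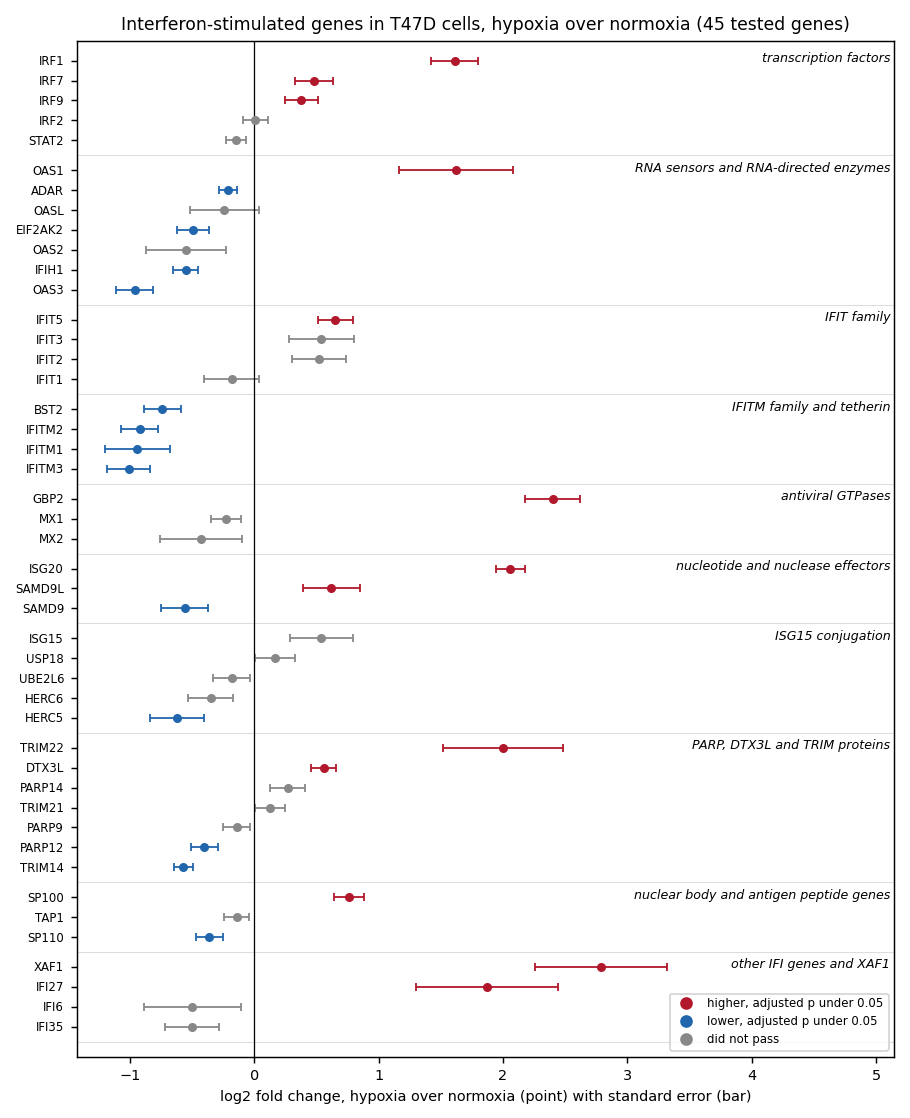
Log2 fold change of the 45 tested interferon-stimulated genes, hypoxia over normoxia, grouped by role. Points are edgeR estimates, bars are 1 standard error, and colors mark the 13 genes called higher, the 13 called lower and the 19 that did not pass. The IFITM family and tetherin lie wholly to the left of 0, while most other groups hold genes on both sides.

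VEGFA, a direct target of hypoxia-inducible factors, checked the treatment, with 34.2 to 46.5 CPM (counts scaled to library depth) in normoxia and 764 to 834 CPM in hypoxia (log2 fold change 4.36, adjusted p = 5.16e-06). CPM is the count per 1e6 counts of the library, scaled by TMM factors. CA9, the carbonic anhydrase of hypoxic cells, rose by 5.29 on the log2 scale (adjusted p = 6.16e-05). Libraries held 32989104 to 89883409 counts, the deepest being hypoxia replicate 3, and 3 counts correspond to 0.0328 to 0.0969 CPM, so the ISGs with few reads are the least precise. All 12 luminal markers listed were detected in each library (summed level 15877 to 19884 CPM in normoxia, 11536 to 14622 CPM in hypoxia, mostly KRT8, KRT18 and KRT19). Among them the hormone receptors PGR and ESR1 fell 7.62-fold and 3.64-fold in hypoxia. GATA3, FOXA1, SPDEF and XBP1 were also called lower and ELF3 higher, while KRT8, KRT18, KRT19, EPCAM and CDH1 did not pass. Both replicate 3 libraries stood apart from the others. VIM, an intermediate filament of mesenchymal cells, had 12.8 CPM in normoxia replicate 3 and 11 CPM in hypoxia replicate 3, and 0.177 to 0.957 CPM in the other 4 libraries. Of the other mesenchymal or basal-like markers, CAV1, CAV2, MSN, SPARC and ANXA1 were also highest in replicate 3 of each condition. CD44 and FN1 were lowest there, and the remaining markers were mixed. The 12 markers summed to 277 CPM in normoxia replicate 3, against 305 and 311 CPM in replicates 1 and 2. In hypoxia they summed to 587 CPM in replicate 3, against 528 and 523 CPM. Of the 12, 8 to 12 were over 3 counts in normoxia libraries and 11 or 12 in hypoxia libraries. The 7 leukocyte markers summed to 2.97 to 3.44 CPM in normoxia and 11.2 to 13.4 CPM in hypoxia, CD68 having the highest level, while the defining leukocyte gene PTPRC stood at 0 counts in all normoxia libraries and at most 5 counts in hypoxia. The 8 fibroblast and endothelial markers summed to 77.8 to 100 CPM in all libraries, mostly COL1A1. The part of these markers in the ISG results was not tested, and results of ISGs without replicate 3 are given where a call was gained or lost.

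Of the 5 transcription factors among the ISGs, 3 rose in hypoxia and none fell (30.4% of all genes tested were higher and 29.1% lower). IRF1 changed most. IRF1 (chr5:131817301-131826465 on GRCh37, the build of the counts), the first interferon regulatory factor known and a target of STAT dimers, had 3.65, 5.48 and 5.01 CPM in normoxia and 14.2, 16.8 and 12.4 CPM in hypoxia. The groups were far apart, and IRF1 rose 3.06-fold (log2 fold change 1.61, SE 0.19, adjusted p = 3.30e-04). Its promoter holds a GAS-like match, TTCNNNGAA, 124 bases before the start site.
IRF1, chr5:132490879-132490907 on GRCh38.p14, minus strand: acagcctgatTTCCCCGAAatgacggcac
This window was chosen after the values were seen. IRF7, the factor that amplifies interferon alpha genes, had 3.85, 3.9 and 3.39 CPM in normoxia and 4.99, 4.84 and 5.69 CPM in hypoxia. The groups did not overlap, and the rise was 1.39-fold (log2 fold change 0.48, SE 0.15, adjusted p = 0.0258). IRF9, the DNA-binding subunit of ISGF3, had 5.7, 6.21 and 5.04 CPM in normoxia and 7.61, 7.33 and 7.12 CPM in hypoxia. It rose 1.3-fold (log2 fold change 0.38, SE 0.13, adjusted p = 0.0408). The calls of IRF7 and IRF9 were lost in 8 and 7 of the 9 leave-out fits, with adjusted p up to 0.168 and 0.278, and both genes were higher in hypoxia in all 9.

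The other two factors lay close to 0. STAT2, the partner of IRF9 in ISGF3, had 58.4, 64.7 and 57.9 CPM in normoxia and 53.4, 53.2 and 56.4 CPM in hypoxia. Hypoxia lay below normoxia by a small margin, and STAT2 did not pass the test (log2 fold change -0.15, SE 0.08, adjusted p = 0.137). Without replicate 3 it passed, at -0.20 (adjusted p = 0.0198). IRF2, which competes with IRF1 for the same sites, had 15.6, 18 and 16.6 CPM in normoxia and 16.5, 17.6 and 16.3 CPM in hypoxia. Its groups overlapped fully, with a log2 fold change of 0.0069 (SE 0.10, adjusted p = 0.957).

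Of the 7 cytosolic RNA sensors and RNA-directed enzymes, 4 were lower, 1 was higher and 2 did not pass (29.1% of all genes tested were lower and 30.4% higher). With upper-quartile scaling 2 were lower and 1 higher (21% and 38.1% of all genes). IFIH1 (MDA5, chr2:163123589-163175218), the sensor of long double-stranded RNA, had 15.7, 15.7 and 16.6 CPM in normoxia and 10.2, 11.9 and 10.8 CPM in hypoxia. The groups were separate, and IFIH1 fell by 0.55 on the log2 scale (SE 0.10, adjusted p = 0.00294). EIF2AK2, the kinase PKR that phosphorylates eIF2α when it meets double-stranded RNA, ranged from 25.4 to 33.2 CPM in normoxia and from 18 to 22.5 CPM in hypoxia, a decrease of 1.41-fold (adjusted p = 0.013). ADAR, which converts adenosine to inosine in double-stranded RNA, was the ISG with the most reads, at 359 to 401 CPM in normoxia and 317 to 336 CPM in hypoxia. It fell by 0.21 on the log2 scale (adjusted p = 0.0365), a call that held in 2 of the 9 leave-out fits and reached an adjusted p of 0.351. PKR's call was lost in 3 of the 9 (adjusted p up to 0.0983), and that of IFIH1 in 1, without replicate 1 (adjusted p = 0.0746).

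The oligoadenylate synthetases, which make the messenger that activates RNase L, split in 2 directions although OAS1, OAS3 and OAS2 lie side by side on chromosome 12. OAS3 (chr12:113376238-113411055), the largest enzyme of the family, had 59.6, 51.8 and 66.4 CPM in normoxia and 26.8, 27.7 and 36.8 CPM in hypoxia. All hypoxia values lay well below normoxia, and OAS3 fell by 0.96 on the log2 scale (SE 0.15, adjusted p = 0.00107). OAS1 (chr12:113344582-113369995) had far fewer reads, with 0.304, 0.107 and 0.226 CPM in normoxia and 0.371, 0.847 and 0.755 CPM in hypoxia. It rose 3.08-fold (log2 fold change 1.62, SE 0.46, adjusted p = 0.0169) from 4 to 12 counts per normoxia library. That call was lost in the 3 fits without normoxia replicate 2, without hypoxia replicate 2 or without both (adjusted p up to 0.13). OAS2 did not pass (log2 fold change -0.55, SE 0.32, adjusted p = 0.165), nor did OASL, the family member without enzyme activity (log2 fold change -0.24, SE 0.28, adjusted p = 0.482).

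The IFIT proteins, which hold viral RNA with foreign 5′ ends, are encoded in a cluster on chromosome 10, and 1 of the 4 passed. IFIT5 ranged from 5.91 to 7.58 CPM in normoxia and from 9.9 to 11.5 CPM in hypoxia, and rose by 0.65 on the log2 scale (SE 0.14, adjusted p = 0.00481). Its call was lost without replicate 1 (adjusted p = 0.0673). IFIT2 (log2 fold change 0.52, adjusted p = 0.0677) and IFIT3 (log2 fold change 0.54, adjusted p = 0.108) had positive estimates that did not pass. IFIT1, often used as a readout of interferon signaling, had 3.32 to 4.07 CPM in normoxia and 2.52 to 4.17 CPM in hypoxia. Its groups overlapped (log2 fold change -0.18, SE 0.22, adjusted p = 0.504). IFIT2 passed as higher with upper-quartile scaling, which shifts the median of all genes up by 0.16 and so is no check of a rise.

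The IFITM family and tetherin were the group in which all measured members fell (29.1% of all genes tested were lower). These membrane proteins act at the cell surface and in endosomes, IFITM1 to IFITM3 against the fusion of incoming virions and BST2 (tetherin) against the release of new ones. The 4 remained lower with DESeq2 size factors, with upper-quartile scaling, with the replicate block and without replicate 3. IFITM3 (chr11:319673-320914) had 6.79, 8.63 and 7.27 CPM in normoxia and 3.43, 3.34 and 4.41 CPM in hypoxia. It fell by 1.01 on the log2 scale (SE 0.17, adjusted p = 0.00178), 2.02-fold. IFITM2 (chr11:308107-309410) had 32.5, 41 and 27 CPM in normoxia and 17.4, 16.6 and 18.9 CPM in hypoxia. The hypoxia values were tightly grouped below a wider normoxia range, and the decrease was 1.9-fold (log2 fold change -0.92, SE 0.15, adjusted p = 0.00147). IFITM1 (chr11:313991-315272) had 9.53, 13.3 and 6.59 CPM in normoxia and 4.1, 5.77 and 5.47 CPM in hypoxia. Normoxia replicate 3 lay close to the hypoxia values, and the log2 fold change was -0.94 (SE 0.26, adjusted p = 0.0149). The IFITM1 call was lost in 3 of the 9 leave-out fits, those without hypoxia replicate 1, without replicate 1 and without replicate 2 (adjusted p up to 0.105). The 3 genes are neighboring paralogs on chromosome 11, and reads that match more than 1 of them may have been lost or counted for either.

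BST2 (chr19:17513748-17516457) had 116, 123 and 151 CPM in normoxia and 67.9, 72 and 93.3 CPM in hypoxia. It was highest in replicate 3 of each condition, and fell by 0.74 on the log2 scale (SE 0.15, adjusted p = 0.00332). Per kilobase of counted exon it had the highest level of the ISGs in normoxia, at 128 ± 17.9 CPM per kb (SD, n = 3), and 76.3 ± 13.3 CPM per kb in hypoxia.

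**Figure D3:**
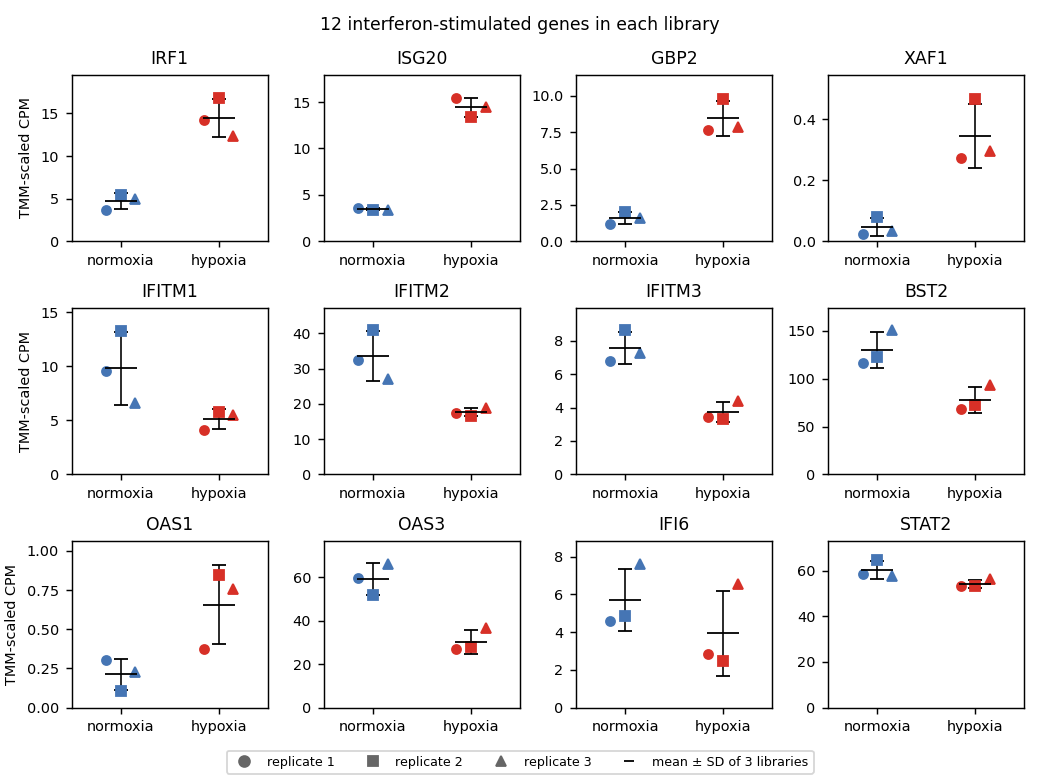
Level of 12 interferon-stimulated genes in each library. The y axes give TMM-scaled CPM from 0, symbols mark the replicate number, and bars give the mean ± SD of 3 libraries. IRF1, ISG20, GBP2, XAF1 and OAS1 lie higher in all hypoxia libraries, IFITM1, IFITM2, IFITM3, BST2 and OAS3 lie lower, and IFI6 is highest in replicate 3 of each condition.

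Among the 3 GTPases, GBP2 rose and the MX genes did not pass. GBP2 (chr1:89571816-89591842), a guanylate-binding protein best known as a target of interferon gamma, had 1.19, 2.02 and 1.58 CPM in normoxia and 7.66, 9.81 and 7.87 CPM in hypoxia. The groups were separated by a wide gap, and GBP2 rose 5.28-fold (log2 fold change 2.40, SE 0.22, adjusted p = 1.46e-04). MX1, the dynamin-like barrier to influenza virus, had 14.3 to 17.6 CPM in normoxia and 12.1 to 14 CPM in hypoxia (log2 fold change -0.23, SE 0.12, adjusted p = 0.126). Without replicate 3 it passed as lower, at -0.32 (adjusted p = 0.0202). MX2 varied more between libraries (log2 fold change -0.43, SE 0.33, adjusted p = 0.283).

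The nucleases and nucleotide enzymes comprise ISG20, SAMD9, SAMD9L, RSAD2 and CMPK2. ISG20 (chr15:89178868-89199575), an exonuclease that degrades single-stranded RNA, had 3.6, 3.41 and 3.39 CPM in normoxia and 15.4, 13.4 and 14.5 CPM in hypoxia. Libraries of a condition hardly differed from each other, and ISG20 rose 4.17-fold (log2 fold change 2.06, SE 0.12), with the smallest adjusted p of the set (3.94e-05). SAMD9 and SAMD9L are neighboring paralogs on chromosome 7 that restrict translation in infected cells, and they moved in opposite directions. SAMD9 (chr7:92728826-92747336) had 5.04, 4.38 and 5.36 CPM in normoxia and 3.46, 3.94 and 2.68 CPM in hypoxia. It fell by 0.56 on the log2 scale (SE 0.19, adjusted p = 0.0343). SAMD9L ranged from 0.872 to 1.32 CPM in normoxia and from 1.53 to 1.7 CPM in hypoxia, and rose by 0.62 (SE 0.23, adjusted p = 0.0486). Neither call was firm, since that of SAMD9 was lost in 6 of the 9 leave-out fits (adjusted p up to 0.203) and that of SAMD9L in 8 (adjusted p up to 0.336).

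RSAD2 and CMPK2, neighbors on chromosome 2 that encode viperin and a mitochondrial nucleotide kinase, had too few counts for the main test. RSAD2 had 1, 0 and 4 counts in the normoxia libraries and 19, 15 and 13 in the hypoxia libraries. The ratio of the summed, depth-scaled counts was 5.99 (exact 95% interval 2.39 to 19.3, counting error only). The excess lay mainly in hypoxia replicates 1 and 2, since replicate 3 has more reads in all and gave 0.142 CPM, against 0.469 and 0.41 CPM. It passed with no filter on low counts (adjusted p = 0.025). It also passed without replicate 3 (adjusted p = 7.61e-05), but there the filter kept it only through the hypoxia libraries. That fit also left out the hypoxia library with the lowest RSAD2 level, so its result is a description. CMPK2 had 0 to 3 counts in every library. The neighbors IFI44 and IFI44L on chromosome 1 were as low, with 1, 3 and 5 against 2, 7 and 15 counts for IFI44, and for IFI44L 3 counts in hypoxia replicate 3 and 0 in the other 5 libraries. At this depth no difference was detectable in CMPK2, IFI44 or IFI44L.

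The ISG15 system attaches the ubiquitin-like protein ISG15 to other proteins. Of its 5 genes 1 was called, HERC5 (chr4:89378268-89427319), the main ligase, with 1.24, 1.07 and 1.07 CPM in normoxia and 0.766, 0.765 and 0.678 CPM in hypoxia. It fell by 0.62 on the log2 scale (SE 0.22, adjusted p = 0.0395), but the call was lost in all 9 leave-out fits (adjusted p up to 0.288) and with upper-quartile scaling, with DESeq2's test and with no filter on low counts. HERC6, its neighbor, had 5.73, 5.67 and 7.85 CPM in normoxia and 5.11, 4.35 and 5.56 CPM in hypoxia. The groups lay close together, and the log2 fold change of -0.35 (SE 0.18, adjusted p = 0.13) passed as lower only with the replicate block (adjusted p = 0.0374). ISG15 itself had 0.914 to 1.29 CPM in normoxia and 1.38 to 2.03 CPM in hypoxia. The groups did not overlap, yet the estimate did not pass (log2 fold change 0.54, SE 0.25, adjusted p = 0.0971). ISG15 passed as higher with upper-quartile scaling, which shifts the median of all genes up by 0.16 and so is no check of a rise. The conjugating enzyme UBE2L6 (log2 fold change -0.18, adjusted p = 0.326) and USP18, the protease that removes ISG15 and dampens the receptor (log2 fold change 0.17, adjusted p = 0.39), did not pass. Without replicate 3 UBE2L6 passed as lower, at -0.27 (adjusted p = 0.0156).

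Of the 7 PARP, DTX3L and TRIM genes, 2 rose, 2 fell and 3 did not pass. TRIM22 (chr11:5710817-5732093), a ligase that restricts retroviral transcription, had 0.0253, 0.134 and 0.129 CPM in normoxia and 0.371, 0.383 and 0.394 CPM in hypoxia. The normoxia values rested on 1, 5 and 4 counts. TRIM22 rose by 2.00 on the log2 scale (SE 0.48, adjusted p = 0.0081), with a ratio of summed counts of 4.14 (exact 95% interval 2.12 to 9.05), and its call was lost without replicate 1 (adjusted p = 0.0691). TRIM14 (chr9:100846635-100881635), an adaptor of MAVS signaling, had 31.2, 32.1 and 31.9 CPM in normoxia and 20.6, 21.9 and 21.5 CPM in hypoxia. It was among the most even of the set, and fell by 0.57 (SE 0.078, adjusted p = 6.34e-04). PARP12, an ADP-ribosyltransferase of stress granules, fell by 0.40 (SE 0.11, adjusted p = 0.014), a call lost in 3 of the 9 leave-out fits (adjusted p up to 0.142) and with upper-quartile scaling. TRIM21, the cytosolic antibody receptor, did not pass (log2 fold change 0.13, adjusted p = 0.387).

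DTX3L, PARP9 and PARP14 lie together on chromosome 3, and DTX3L and PARP9 form a ligase complex and start from 1 promoter in opposite directions. DTX3L had 14 to 15 CPM in normoxia and 20.1 to 22.7 CPM in hypoxia, and rose by 0.56 (SE 0.10, adjusted p = 0.00162). Its call was lost without replicate 1 (adjusted p = 0.0566). PARP9 had 17.5 to 21.5 CPM in normoxia and 16.7 to 17.4 CPM in hypoxia, and did not pass (log2 fold change -0.14, SE 0.11, adjusted p = 0.284). The promoters of both genes hold the same ISRE-like match, shown once along each strand. The pair was chosen for display after its values were seen.
DTX3L, chr3:122564322-122564351 on GRCh38.p14, plus strand: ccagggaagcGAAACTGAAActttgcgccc
PARP9, chr3:122564322-122564351 on GRCh38.p14, minus strand: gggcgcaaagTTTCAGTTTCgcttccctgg
In the gene models of the files their exons share 185 bases on opposite strands, and the strand setting of the counting is not given in the sources used here, so reads from that stretch may be assigned to neither or to either gene. PARP14, a further ADP-ribosyltransferase with a match of its own, had 22.8, 25 and 30.1 CPM in normoxia and 26.5, 33 and 34.4 CPM in hypoxia. Each hypoxia library lay above the normoxia library of its number, and the log2 fold change was 0.27 (SE 0.14, adjusted p = 0.127). PARP14 passed as higher with the replicate block (adjusted p = 0.0104) and without replicate 3. It also passed with upper-quartile scaling, which shifts the median of all genes up by 0.16 and so is no check of a rise.

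SP100 and SP110, nuclear body proteins encoded close together on chromosome 2, moved in opposite directions. SP100 (chr2:231280871-231410317) had 8.39, 9.57 and 10.4 CPM in normoxia and 15, 16.9 and 16.1 CPM in hypoxia. It rose 1.7-fold (log2 fold change 0.76, SE 0.12, adjusted p = 0.00112). SP110 ranged from 15.6 to 17.6 CPM in normoxia and from 11.8 to 14.3 CPM in hypoxia, and fell by 0.36 (SE 0.11, adjusted p = 0.0242). The SP110 call was lost in 6 of the 9 leave-out fits (adjusted p up to 0.211) and with upper-quartile scaling. TAP1, a subunit of the peptide transporter that feeds MHC class I molecules, had 76.6, 75.3 and 85.5 CPM in normoxia and 67.3, 66.9 and 80.8 CPM in hypoxia. The groups overlapped (log2 fold change -0.14, SE 0.10, adjusted p = 0.255), and it passed as lower with the replicate block (adjusted p = 0.0405) and without replicate 3 (-0.17, adjusted p = 0.0248). TAP1 was counted over chromosome 6 and 7 alternate contigs and shares 456 exon bases with PSMB8-AS1 on the other strand, so its counts are uncertain.

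XAF1 and IFI27 rose, while IFI6 and IFI35 depended on the replicate number. XAF1 (chr17:6659156-6678964), a pro-apoptotic partner of the inhibitor XIAP, had 0.0253, 0.0806 and 0.0323 CPM in normoxia and 0.272, 0.465 and 0.295 CPM in hypoxia. The groups did not overlap, and the fitted log2 fold change was the largest of the set (2.79, SE 0.53, adjusted p = 0.0029), but normoxia had 1, 3 and 1 counts. The ratio of summed counts was 7.01 (exact 95% interval 2.83 to 22.5). IFI27 (chr14:94577079-94583036), a mitochondrial and nuclear envelope protein used in blood signatures of interferon, had 0.0253, 0.134 and 0.291 CPM in normoxia and 0.42, 0.519 and 0.613 CPM in hypoxia. The normoxia libraries spread 11.5-fold, on 1, 5 and 9 counts. It rose by 1.87 on the log2 scale (SE 0.57, adjusted p = 0.0221), with a count ratio of 3.91 (exact 95% interval 2.25 to 7.27), and the call was lost in 6 of the 9 leave-out fits (adjusted p up to 0.111).

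IFI6, a mitochondrial protein that protects against apoptosis, had 4.61, 4.86 and 7.59 CPM in normoxia and 2.82, 2.46 and 6.53 CPM in hypoxia. Hypoxia replicate 3 lay above normoxia replicates 1 and 2, and the groups overlapped (log2 fold change -0.50, SE 0.39, adjusted p = 0.292). Within each replicate number hypoxia was lower, and with the block IFI6 fell by 0.60 (adjusted p = 0.0137). Without replicate 3 the decrease was 0.84 (adjusted p = 4.87e-04). IFI35, a leucine zipper protein released by stressed cells, had 17, 17.1 and 18.2 CPM in normoxia and 10.8, 8.91 and 17.1 CPM in hypoxia. Again hypoxia replicate 3 stood among the normoxia values (log2 fold change -0.50, SE 0.22, adjusted p = 0.0862), and the block gave a decrease of 0.54 (adjusted p = 0.0117). Without replicate 3 IFI35 fell by 0.78 (adjusted p = 2.17e-05). Against the mean of replicates 1 and 2, replicate 3 was higher in IFI6 by 0.63 in normoxia and 1.17 in hypoxia on the log2 scale, and in IFI35 by 0.09 and 0.77. Over the 45 genes the median of that difference was 0.01 in normoxia and 0.07 in hypoxia, against -0.01 and 0.01 over all genes. Without replicate 3, 46 ISGs could be tested and 13 were higher and 17 lower, while 36.4% of all genes tested there were higher and 34.8% lower. The calls of IRF7, HERC5, SAMD9 and SAMD9L were lost there (adjusted p = 0.0553, 0.0673, 0.0736 and 0.0754).

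Levels per exon length spanned several orders of magnitude, and most ISGs were present without added interferon. Of 48 genes compared on this scale (TAP1 was left out because of its extra contigs), 41 exceeded 0.1 CPM per kb in normoxia, 29 exceeded 1 and 8 exceeded 10. After BST2, ADAR had 53.6 ± 3 CPM per kb in normoxia (SD, n = 3), IFITM2 45.9 ± 9.65 and UBE2L6 29.4 ± 3.84. ADAR and IFITM2 did not differ beyond their spread. Among the genes that rose, normoxia levels were 1.33 ± 0.268 CPM per kb for IRF1, 0.893 ± 0.0291 for ISG20, 0.386 ± 0.0998 for GBP2 and 0.0127 ± 0.00831 for XAF1.

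**Figure D4:**
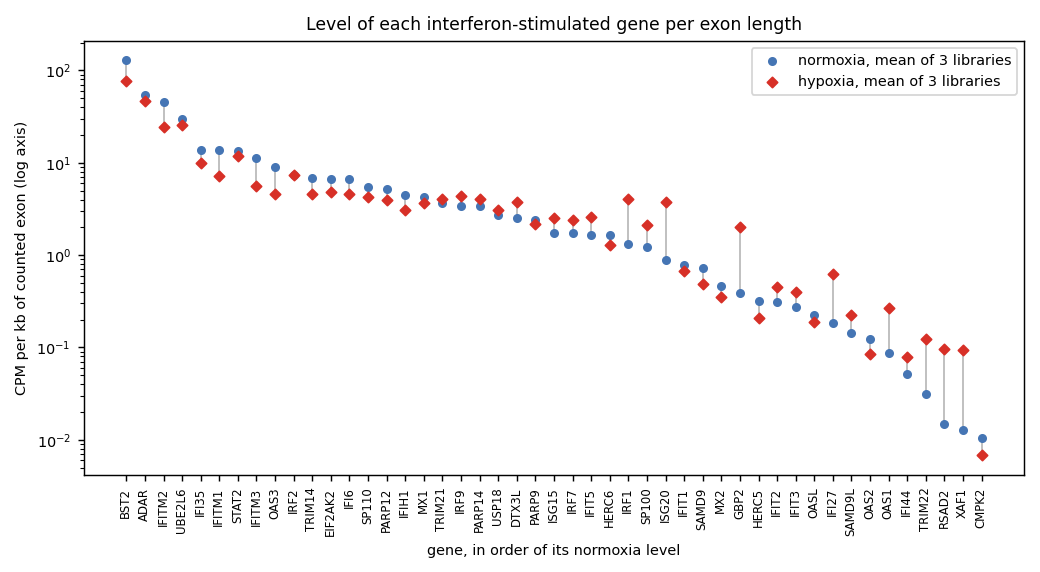
Mean level of each interferon-stimulated gene per kilobase of counted exon in normoxia (circles) and hypoxia (diamonds), in TMM-scaled CPM per kb on a log axis, ordered by normoxia level. BST2 is highest, at 128 in normoxia and 76.3 in hypoxia. TAP1 and IFI44L (listed at 0 in normoxia) are not drawn.

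The genes that produce and receive interferon were examined as a second list of 70 pathway genes outside the ISG set, of which 46 could be tested, 20 rose in hypoxia (43.5%, against 30.4% of all genes), 13 fell (28.3%, against 29.1%) and 13 did not pass. Their median log2 fold change was 0.09. With upper-quartile scaling 22 were higher and 7 lower (38.1% and 21% of all genes). None of the 21 interferon genes reached the filter on low counts. Reads were absent from 16 of them in every library, and the highest count in a library was 4. IFNB1, the first interferon of infected epithelial cells, had 0, 0 and 1 counts in normoxia and 4, 3 and 2 in hypoxia, too few to tell a difference.

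All 6 receptor chains rose, against 30.4% of all genes tested, and also with the replicate block (36.6% of all genes). They rose with upper-quartile scaling too, but that scaling shifts the median of all genes up by 0.16 and so was no check of a rise. The interferon gamma receptor chains rose most, IFNGR2 by 0.92 on the log2 scale (SE 0.13, adjusted p = 7.60e-04) and IFNGR1 by 0.78 (SE 0.084, adjusted p = 2.42e-04). IFNGR2 had 31.8 to 45.1 CPM in normoxia and 69.3 to 78.1 CPM in hypoxia. The type I receptor chains IFNAR2 (0.55, adjusted p = 0.014) and IFNAR1 (0.26, adjusted p = 0.016) and the type III receptor chains IL10RB (0.71, adjusted p = 2.93e-04) and IFNLR1 (0.59, adjusted p = 0.00495) rose less than IFNGR2. The calls of IFNAR1 and IFNAR2 were lost in 5 and 3 of the 9 leave-out fits, with adjusted p up to 0.183 and 0.105, and that of IFNLR1 without replicate 1 (adjusted p = 0.0848).

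Downstream of the receptors, 3 of 12 kinases, STATs and brakes rose, 2 fell and 7 did not pass (30.4% of all genes rose and 29.1% fell). JAK1 fell by 0.60 (SE 0.14, adjusted p = 0.00739), a call lost without replicate 1 and without replicate 2 (adjusted p up to 0.0803). STAT3, a STAT shared with interleukin-6 signaling, rose by 0.46 (adjusted p = 0.00191) and its target SOCS3, which inhibits JAK kinases, by 0.93 (adjusted p = 0.00316). The STAT3 and SOCS3 calls were lost without replicate 1 (adjusted p = 0.0557 and 0.0696). TYK2 did not pass (log2 fold change -0.24, adjusted p = 0.0823), but was lower with the replicate block (-0.25, adjusted p = 0.00465) and without replicate 3 (-0.28, adjusted p = 0.00173). SOCS1, a further inhibitor of JAK kinases, did not pass (0.64, SE 0.32, adjusted p = 0.118), nor with the replicate block (0.63, adjusted p = 0.108). It passed as higher in 2 of the 9 leave-out fits, among them the fit without replicate 3 (1.02, adjusted p = 0.0163).

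Of 12 tested sensors and relays of foreign nucleic acid, 4 rose, 6 fell and 2 did not pass (30.4% of all genes rose and 29.1% fell). With upper-quartile scaling 5 rose and 2 fell (38.1% and 21% of all genes). The largest increase was in TMEM173 (STING), the adaptor of cytosolic DNA sensing, with 0.861, 1.21 and 0.775 CPM in normoxia and 4.35, 4.98 and 5.38 CPM in hypoxia. It rose 5.15-fold (log2 fold change 2.36, SE 0.22, adjusted p = 1.52e-04), whereas MB21D1 (cGAS), which makes its ligand, had at most 3 counts in any library. IFI16, a nuclear DNA sensor, rose by 2.06 (SE 0.25, adjusted p = 4.20e-04) from 0.591 to 0.937 CPM in normoxia to 2.47 to 3.47 CPM in hypoxia. TLR3, the endosomal receptor of double-stranded RNA, rose by 1.89 (SE 0.42, adjusted p = 0.00595), a call lost without replicate 2 (adjusted p = 0.0614). Its normoxia libraries held 20, 8 and 5 counts. TLR3 passed the filter on low counts only through the hypoxia libraries, so its rise is a description. The 6 that fell were DDX58 (RIG-I, -0.42), DHX58 (-0.45), TRIM25 (-0.48), MAVS (-0.33), TBK1 (-0.32) and IKBKE (-0.58). The calls of TRIM25 and IKBKE held in all 9 leave-out fits and with upper-quartile scaling, while those of DDX58, DHX58, MAVS and TBK1 were lost in 5, 6, 2 and 5 of the 9, with adjusted p up to 0.196, and with that scaling. Of the genes that did not pass, TRAF3 was higher (0.28, adjusted p = 0.00528) and IRF3 lower (-0.27, adjusted p = 0.00505) with the replicate block, and both passed in the same direction without replicate 3 (adjusted p = 0.00162 and 0.00154).

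**Figure D5:**
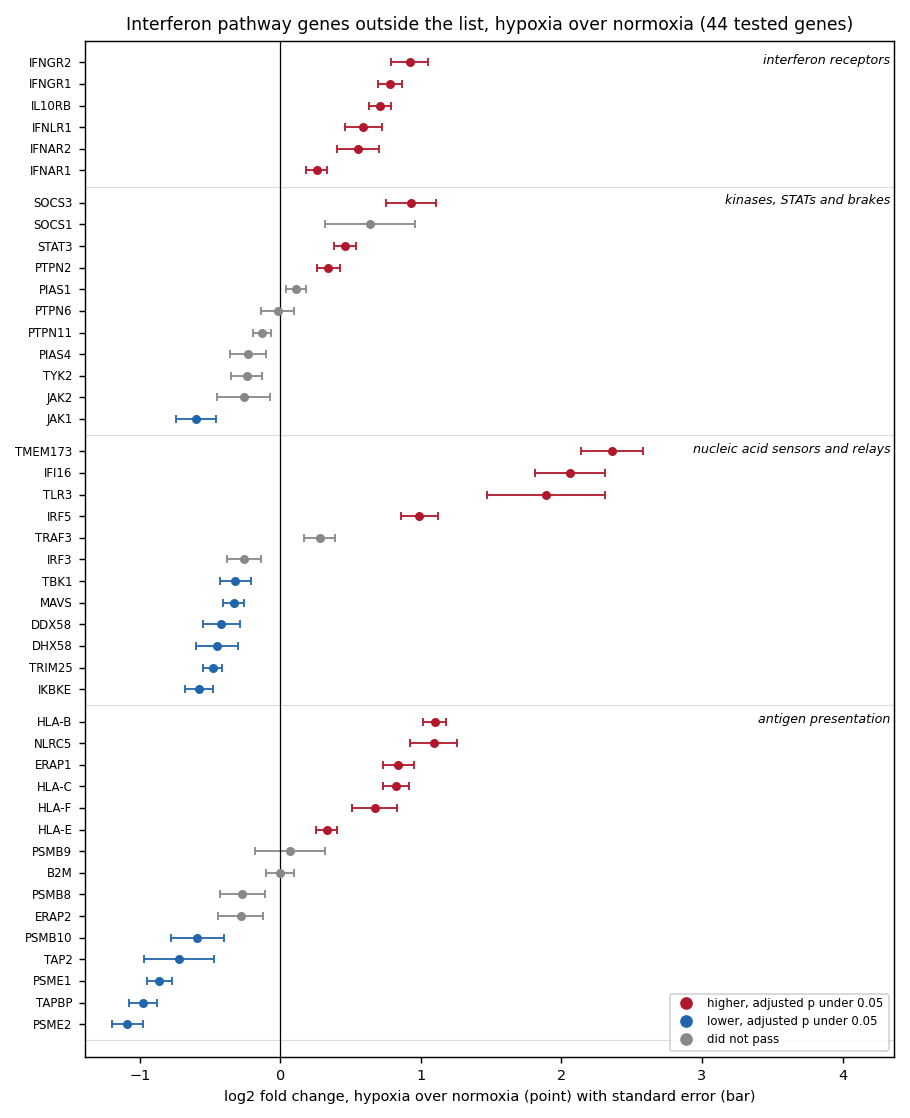
Log2 fold change, hypoxia over normoxia, of 44 of the 46 tested interferon pathway genes outside the ISG set. Points are edgeR estimates, bars are 1 standard error, and colors mark the 19 genes called higher, the 12 called lower and the 13 that did not pass. The 6 receptor chains lie to the right of 0.

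Antigen presentation genes, further targets of interferon gamma, moved in both directions. Of 16 genes, 7 rose, 5 fell and 4 did not pass (30.4% of all genes rose and 29.1% fell). With upper-quartile scaling 7 rose and 3 fell (38.1% and 21% of all genes). The heavy chain HLA-B (log2 fold change 1.10, SE 0.082, adjusted p = 6.80e-05) rose, as did NLRC5, the transactivator of MHC class I genes (1.09, SE 0.17, adjusted p = 0.00114). HLA-B had 238 to 242 CPM in normoxia and 488 to 566 CPM in hypoxia. The light chain B2M did not pass (log2 fold change -0.002, SE 0.10, adjusted p = 0.988). Genes that cut, move or load peptides were found among those that rose, those that fell and those that did not pass. ERAP1, which trims peptides in the endoplasmic reticulum, rose by 0.84 (adjusted p = 5.49e-04). PSME2, an activator subunit of the immunoproteasome, fell by 1.09 (SE 0.11, adjusted p = 1.66e-04) from 41.5 to 51 CPM in normoxia to 20.4 to 23.5 CPM in hypoxia, and TAPBP (tapasin) by 0.98 (SE 0.10, adjusted p = 2.00e-04). PSMB8, PSMB9 and ERAP2 did not pass (adjusted p = 0.173, 0.834 and 0.16), PSMB8 was lower with the replicate block (-0.29, adjusted p = 0.00793), and PSMB8 and ERAP2 were lower without replicate 3 (-0.33 and -0.48, adjusted p = 0.00374 and 0.00206). HLA genes, TAP2 and TAPBP were also counted over alternate contigs of chromosome 6, and near-identical HLA genes can share reads.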

How the data were processed

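RNA from T47D cells was sequenced by the authors, 3 libraries from normoxia and 3 from hypoxia. The authors removed adapters, aligned the reads to GRCh37 with STAR 2.5.2a and deposited raw counts per RefSeq gene from featureCounts 1.5.1, without normalization, after quality control with FastQC 0.11.5 (tools and versions from the submitters' processing notes). The exon length of each gene stands beside the counts. Whether counting used strand, and how multi-mapping reads were handled, is not given in the sources used here.

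The analysis used R 4.3.3 with edgeR 4.0.16 and limma 3.58.1, with DESeq2 1.42.0 as an alternative, and plots and tables with Python 3.11.15. Genes were kept by filterByExpr (minimum count 10, minimum total 15), and the 15657 kept were tested on all 6 libraries with edgeR's quasi-likelihood test, TMM normalization and no term but condition, two-sided, at a Benjamini-Hochberg adjusted p of 0.05. Libraries of a condition differed beyond sampling noise (chi-square per degree of freedom 6.44 to 76.5). Libraries with 1 number shared their deviations from the condition means (correlation across genes 0.338, 0.422 and 0.575 for replicates 1, 2 and 3), so the numbers were taken to pair the libraries, and a fit with the replicate number as a block (common biological coefficient of variation 0.0751, against 0.141 without) is given where it changes a call. Standard errors, adjusted p and leave-out fits not named as with the block are from the fit without it, which ignores this pairing. The fit was tested on simulated data. Count ratios of genes with few reads are of counts summed over a condition and divided by TMM-scaled depth, with exact (Clopper-Pearson) intervals that cover counting error only, and reads carried no molecular identifiers.

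The members and the lists of pathway and marker genes were chosen with earlier results of these data known. Values in every library were given for the 8 largest changes each way among the called ISGs, for transcription factors and IFIH1, for genes whose call differed with the block, and for genes whose largest over smallest value within a condition exceeded 4. Pathway genes were named where they were called with a log2 fold change of at least 1 either way, except for some that are not reported here, and other named pathway genes were chosen after their values were seen, as were genes singled out for their place beside another. Promoter windows came from RefSeq (GRCh38.p14), and were not compared with the GRCh37 coordinates of the counts. MX2, IRF7, GBP2, IFITM2, IRF2, USP18, OAS2, IFIT2, OASL and TRIM22 had no entry in that table. Alternatives covered the normalization, the filter, the test, the block, the threshold, and each library and replicate number left out in turn.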

Additional observations from a re-analysis of the deposited data

How the results depend on the processing

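DESeq2 size factors and edgeR's exact test gave the same 26 ISG calls as the main test. The replicate block kept all 26 and added IFI6, IFI35, HERC6, PARP14 and TAP1, and it changed no other ISG call. Among pathway genes it added TYK2, PIAS4, IRF3 and PSMB8 as lower and TRAF3 as higher. DESeq2's Wald test lost HERC5 and SAMD9L and gained IFI35, and no filter on low counts lost IRF9, HERC5, SAMD9L and ADAR. Upper-quartile scaling lost HERC5, SAMD9, PARP12, SP110, EIF2AK2 and ADAR and gained ISG15, IFIT2 and PARP14, leaving 7 ISGs and 7 pathway genes lower. It turned the sign of 3 genes that had not passed, STAT2 (0.00557), PARP9 (0.0165) and TAP1 (0.0154). IRF2, at 0.0069, turned to -0.00448 with DESeq2 size factors, to -0.00543 with DESeq2's test, and ranged from -0.0519 to 0.0459 in the leave-out fits. At an adjusted p below 0.01, 14 ISGs remained (8 higher, 6 lower) and 8 pathway genes were lower. Why the calls moved was not tested, beyond the fewer libraries in the leave-out fits.

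Leaving out 1 library or 1 replicate number gave 11 to 30 called ISGs (6 to 13 higher, 5 to 17 lower), 19 to 39 pathway genes (13 to 22 higher, 6 to 17 lower) and 4839 to 11257 genes in all (2648 to 5751 higher, 2191 to 5506 lower). The ISG count was lowest without replicate 1 (11), without replicate 2 (15), and without normoxia or hypoxia replicate 1 (17 each). Without hypoxia replicate 2 or replicate 2, 8 ISGs were higher. ISGs that fell numbered 8 without normoxia replicate 1 and 7 without hypoxia replicate 1 or replicate 2, and pathway genes that fell numbered 8 without hypoxia replicate 1 and 7 without replicate 2. Genes with few reads (XAF1, TRIM22, IFI27, OAS1 and those not tested) are limited by depth.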

Other observations

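Other motifs in the promoters of the ISGs were closer to their frequency in all promoters. The GAS-like letters TTCNNNGAA, which read the same on both strands, stood in 11 of 39 ISG promoters (28.2%, against 9.38% of all genes in the table), and of these 11 genes 4 were higher in hypoxia, 3 were lower and 4 did not pass (over all genes tested, 30.4% were higher and 29.1% lower). The core of the hypoxia response element was searched on either strand as ACGTG, present in 10 of 39 (25.6%, against 24.9%), and as GCGTG, present in 13 of 39 (33.3%, against 40.6%). Of the 10 genes with ACGTG, 4 were higher and 4 were lower, and of the 12 tested genes with GCGTG, 2 were higher and 6 were lower. ISG20 and IRF1, both higher in hypoxia, held ACGTG, as did EIF2AK2 and ADAR, both lower.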
